A study of Homo sapiens with 6 samples.

Results

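The autophagosome initiation and ATG conjugation machinery was followed as 32 genes, taken by symbol from the count table of RKO cells treated with EZA or DMSO. All 32 had a row among the 58735 Ensembl identifiers of the table, matched to symbols through GENCODE 44. RKO is a human cell line derived from a colorectal carcinoma, and DMSO is the solvent used as the control treatment. Both groups held 3 libraries of this line, described as biological replicates that were sequenced together, and the labels name no difference between them other than the treatment. EZA is not spelled out in the labels, and for its dose and the length of treatment the sources used here state nothing. The comparison asked whether transcripts of this machinery differed between the treatments. Because the RNA came from bulk cultures, fewer cells with a transcript and less of it per cell cannot be told apart.

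Autophagy encloses cytoplasm in a double membrane that then fuses with lysosomes. The ULK kinase complex starts the process, a class III PI3-kinase complex marks the membrane with the lipid PI3P, and WIPI proteins bind that lipid. ATG2 proteins carry lipid into the growing membrane, with ATG9A, VMP1 and TMEM41B moving lipid between the leaflets. The enzymes ATG7, ATG3, ATG10 and the ATG12, ATG5 and ATG16L1 assembly then attach ATG8 proteins to the membrane, after ATG4 proteases have trimmed them, and STX17 and EPG5 serve fusion with the lysosome.

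Levels are given as CPM, counts scaled to a common library size, in the order of replicates 1, 2 and 3, and as FPKM, fragments scaled to depth and transcript length. Libraries held 14070611 to 18840954 counts, and 13503 genes, all 32 of the machinery among them, had enough counts to be tested. These 32 genes had 410 (ATG10) to 18712 (ATG2A) counts over the 6 libraries. EZA replicate 3 stood apart in the whole series, with 0.203% of its counts in mitochondrial genes against 3.68% to 5.02% in the other 5 libraries. Of 5 epithelial markers, KRT18 was at 38.4 FPKM, EPCAM at 2.80 FPKM and KRT8 at 2.71 FPKM in DMSO. KRT19 had 0 or 1 counts in each library, and CDH1 had 0 counts in all libraries. Of 4 intestinal markers CDX2, a transcription factor, was at 4.59 FPKM, CDX1 and LGR5 had 0 counts, and VIL1 had 0 or 1 in each library. Of 3 leukocyte markers PTPRC and CD3E had 0 counts in all 6 libraries, and CD68, which is not confined to leukocytes, had 12 to 25 counts in DMSO and 36, 27 and 0 in EZA. Of 3 endothelial markers PECAM1 had 0 counts, and the list summed to 0 to 1 counts in DMSO and 0 to 10 in EZA, with VWF at 9 in EZA replicate 3. Of 4 mesenchymal markers COL1A2 and DCN had 0 counts, and the list, mostly VIM, summed to 145 to 214 counts in DMSO and 88 to 160 in EZA. The part of these markers in the results was not tested.

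Of the 32 genes, 7 rose and 1 fell in EZA-treated cells (edgeR quasi-likelihood test, Benjamini-Hochberg adjusted p below 0.05 over all genes tested). The 7 were ATG101 of the ULK complex, BECN1 of the PI3-kinase complex, the PI3P effectors WIPI1, WIPI2 and WDR45, the lipid transfer protein ATG2A and the protease ATG4D, and the gene that fell was PIK3R4. The higher calls were 21.9% of the 32 genes, against 9.89% of all genes tested, and the 1 lower call was 3.12%, against 7.82%. The 32 genes were chosen with earlier results of these data known, so shares set beside those of all genes are a description only. The median log2 fold change was 0.089, beside -0.014 for all genes tested, and ran from -0.66 to 1.36. The fold change was positive in 21 of the 32 genes (65.6%), against 48.8% of all. The study's own threshold asks for a log2 fold change of 1 or more in either direction and p below 0.05 without adjustment, and was met by ATG101, ATG2A and WIPI1, which is 9.38% of the 32 genes against 5.73% of all (3.77% in the higher direction, that of all 3). In 15 of the 32 genes no EZA library fell within the DMSO range and the groups lay apart (13 higher and 2 lower in EZA), or 46.9%, against 42.7% of all genes (21.0% higher and 21.7% lower). The 7 that did not overlap and were not called were ULK1, ULK2, ATG13, TMEM41B, ATG7 and ATG4B, on the higher side, and ATG16L1, on the lower. Without DMSO replicate 1 none of the 32 genes was called in the edgeR test, where 1.15% of all genes were called higher and 0.451% lower. Without DMSO replicate 3 the counts were also 0, against 1.31% and 0.529% of all genes. Without DMSO replicate 2 they were 2 higher and 0 lower, against 3.54% and 2.17% of all genes. Without EZA replicate 1 they were 3 and 1, against 7.07% and 4.38% of all genes, and without EZA replicate 2 they were 3 and 0, against 6.79% and 3.86% of all genes. Without EZA replicate 3, 12 genes of the machinery rose and 2 fell, against 19.1% and 19.2% of all genes.

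**Figure D1:**
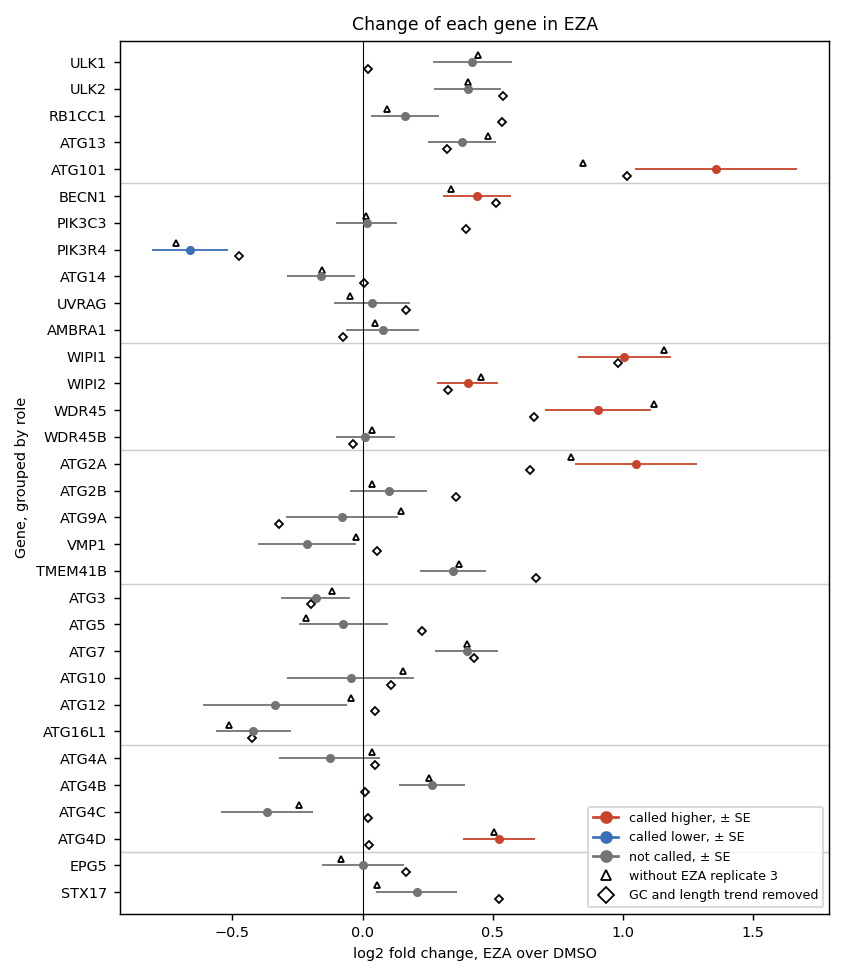
Points give the log2 fold change of each of the 32 genes, EZA over DMSO, with whiskers of 1 SE from the edgeR fit (3 libraries a group), grouped by role; triangles give the value without EZA replicate 3 and diamonds the value with the trend in GC content and transcript length removed. ATG101 lies farthest to the right at 1.36 and PIK3R4 farthest to the left at -0.66, and the diamonds of ULK1 and ATG4D lie near 0.

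Promoters are shown for the 4 called genes with the largest change that RefSeq's table holds, and for PIK3C3, the gene in that table whose level changed least. Each run is the 250 bases before the RefSeq start on GRCh38.p14, 5′ to 3′, at chr12:52069728-52069977 on the plus strand for ATG101, chr11:64917210-64917459 on the minus strand for ATG2A, chr17:68457497-68457746 on the minus strand for WIPI1, chrX:49101179-49101428 on the minus strand for WDR45 and chr18:41954984-41955233 on the plus strand for PIK3C3. Capitals mark the motif TGACNNNGC, the core of the element bound by NRF2, a factor of the oxidative stress response.
ATG101: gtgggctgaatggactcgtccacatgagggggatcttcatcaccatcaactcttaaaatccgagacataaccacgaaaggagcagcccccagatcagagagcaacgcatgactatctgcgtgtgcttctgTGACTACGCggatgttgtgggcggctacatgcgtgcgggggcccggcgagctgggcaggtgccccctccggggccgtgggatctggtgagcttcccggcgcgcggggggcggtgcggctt
ATG2A: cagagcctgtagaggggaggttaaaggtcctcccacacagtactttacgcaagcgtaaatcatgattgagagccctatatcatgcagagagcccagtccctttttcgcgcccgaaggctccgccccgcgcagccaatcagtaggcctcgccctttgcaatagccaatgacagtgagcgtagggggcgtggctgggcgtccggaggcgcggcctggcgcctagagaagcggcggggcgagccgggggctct
WIPI1: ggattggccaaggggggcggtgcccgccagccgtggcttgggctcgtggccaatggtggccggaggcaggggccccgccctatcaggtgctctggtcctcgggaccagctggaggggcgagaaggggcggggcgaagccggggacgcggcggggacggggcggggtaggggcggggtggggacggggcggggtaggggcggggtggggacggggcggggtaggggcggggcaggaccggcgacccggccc
WDR45: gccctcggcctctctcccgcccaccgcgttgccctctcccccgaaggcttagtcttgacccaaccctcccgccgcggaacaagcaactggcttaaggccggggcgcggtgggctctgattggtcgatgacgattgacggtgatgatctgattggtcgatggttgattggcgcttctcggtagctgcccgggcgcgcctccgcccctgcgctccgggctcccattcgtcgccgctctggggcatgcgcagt
PIK3C3: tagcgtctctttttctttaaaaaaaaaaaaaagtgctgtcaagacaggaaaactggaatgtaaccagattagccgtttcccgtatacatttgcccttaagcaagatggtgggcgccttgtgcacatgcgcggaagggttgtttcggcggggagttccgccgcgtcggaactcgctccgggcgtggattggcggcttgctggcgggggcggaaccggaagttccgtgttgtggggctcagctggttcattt
The window of ATG101 lies inside the span that GENCODE gives the gene. The same holds for the searched windows of AMBRA1, ATG4B, ATG5, ATG12, ATG16L1, BECN1 and VMP1, which are not printed. These windows therefore do not lie before the start of the GENCODE span. By symbol 26 of the 32 genes matched RefSeq's table, all but ATG4D, EPG5, RB1CC1, STX17, UVRAG and WDR45B. ATG101 held the only match of TGACNNNGC among the 26, starting 120 bases before the start, while 13.6% of all 27305 promoters held one. TGATGNAA, a core of the element bound by ATF4, the factor of the amino acid response, was in 0 of the 26 and in 3.67% of all promoters. The E-box CACGTG was in 7.43% of all promoters and its extension GTCACGTG, part of the site bound by the lysosomal regulator TFEB, in 2.53%. Both motifs were in 2 of the 26, ATG14 and ATG3, and neither gene was called. The 30 bases before the start of each, at chr14:55411831-55411860 on the minus strand and chr3:112561963-112561992 on the minus strand, are shown with GTCACGTG or its reverse complement in capitals.
ATG14: acaaaatccCACGTGACtggctctcctctc
ATG3: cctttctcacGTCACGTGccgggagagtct
ATG3 held a further match that begins at base 4 after the start. All motifs were searched on both strands over 250 bases before and 50 after the start, CACGTG lies within GTCACGTG, and a match of letters is a description only. The WIPI1 window is the richest in G and C of the 5, at 79.6% of its bases, against 53.6% in PIK3C3. It repeats GGGCGG, the core of the GC box, 10 times on either strand of its 300 bases, a number reached by 0.223% of all promoters, and at least 1 copy was in 44.6% of all promoters and in 15 of the 26. GGGCGG was searched after these sequences had been seen.

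In the ULK complex, 1 of 5 genes rose (20%) and 0 fell, against 9.89% and 7.82% of all genes tested. All 5 had a positive log2 fold change (median 0.40), against 48.8% of all genes. With so few genes in each role, the shares of single roles are a description only. ATG101 (ENSG00000123395, chromosome 12, 52069246 to 52077495, GRCh38) encodes the partner that stabilises ATG13. Its level was 33.8, 39.0 and 35.6 CPM with DMSO and 58.5, 71.3 and 149 CPM with EZA. All EZA libraries lay above all DMSO libraries, and EZA replicate 3 lay 2.29-fold above the mean of EZA replicates 1 and 2. The log2 fold change was 1.36 ± 0.31 (SE; edgeR adjusted p = 0.0231), 0.85 without EZA replicate 3 (adjusted p = 3.90e-07) and 1.02 after removal of the GC and length trend (adjusted p = 0.0850). ATG101 was no longer called without DMSO replicate 1, DMSO replicate 2 or DMSO replicate 3 (adjusted p = 0.0764 to 0.121). ATG13, the scaffold that the nutrient sensor mTORC1 phosphorylates, was the most counted gene of the complex, with 94.2, 89.6 and 86.6 CPM with DMSO and 124, 127 and 100.8 CPM with EZA. The groups did not overlap, and the log2 fold change of 0.38 ± 0.13 missed the threshold (adjusted p = 0.0753), and without EZA replicate 3 the adjusted p was 3.96e-04. Without each other library in turn ATG13 was not called (adjusted p up to 0.270). After removal of the GC and length trend it was at 0.33 (adjusted p = 0.110). ULK1, the kinase itself, was at 36.0, 46.7 and 42.4 CPM with DMSO and 63.7, 49.7 and 54.4 CPM with EZA, and its paralog ULK2 at 17.2, 18.1 and 18.1 CPM with DMSO and 25.01, 22.1 and 23.5 CPM with EZA. Their log2 fold changes were 0.42 ± 0.15 and 0.40 ± 0.13 (adjusted p = 0.0858 and 0.0612), and both passed without EZA replicate 3 (adjusted p = 0.00503 and 0.0150). Neither passed without each other library in turn (adjusted p up to 0.290 and 0.214). After removal of the GC and length trend the values were 0.023 for ULK1 and 0.54 for ULK2 (adjusted p = 0.930 and 0.0197). RB1CC1, the large scaffold also called FIP200, ran from 60.01 to 63.2 CPM in DMSO and 60.2 to 76.2 CPM in EZA, and the groups overlapped.

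In the class III PI3-kinase complex, 1 of 6 genes rose and 1 fell, 16.7% each, against 9.89% and 7.82% of all genes tested. BECN1 (ENSG00000126581, chromosome 17, 42810134 to 42833350), the scaffold beclin 1, was at 42.1, 41.9 and 40.8 CPM with DMSO and 53.5, 51.8 and 64.3 CPM with EZA. The DMSO libraries lay within 1.26 CPM of each other, and all EZA libraries lay above them. The log2 fold change was 0.44 ± 0.13 (SE; edgeR adjusted p = 0.0497), 0.34 without EZA replicate 3 (adjusted p = 0.0176) and 0.51 after removal of the GC and length trend (adjusted p = 0.0532). BECN1 passed in DESeq2 (adjusted p = 0.0192) and missed the threshold in limma-voom, with library size scaling and with no filter on low counts (adjusted p = 0.0525, 0.0808 and 0.0668). Its call was lost without DMSO replicate 1, DMSO replicate 2, DMSO replicate 3, EZA replicate 1 or EZA replicate 2 (adjusted p = 0.0628 to 0.202). PIK3R4 (ENSG00000196455, chromosome 3, 130678934 to 130746829), the regulatory subunit VPS15, was the 1 gene of the machinery that fell. It was at 68.8, 55.5 and 56.9 CPM with DMSO and 39.9, 33.5 and 41.1 CPM with EZA, with no overlap between the groups. The log2 fold change was -0.66 ± 0.15 (SE; adjusted p = 0.0197), -0.72 without EZA replicate 3 and -0.47 after removal of the GC and length trend (adjusted p = 0.0397). PIK3R4 was no longer called without DMSO replicate 1, DMSO replicate 2, DMSO replicate 3 or EZA replicate 2 (adjusted p = 0.0540 to 0.108). PIK3C3, the lipid kinase VPS34 that PIK3R4 holds, was at 66.6, 59.0 and 60.6 CPM with DMSO and 61.6, 63.3 and 63.3 CPM with EZA, a log2 fold change of 0.016 ± 0.12. AMBRA1, a regulator of BECN1 and the most counted of the 6 genes, was at 60.4, 73.2 and 70.6 CPM with DMSO and 78.1, 62.6 and 74.9 CPM with EZA. ATG14 and UVRAG, the subunits that direct the complex to autophagosomes or to endosomes, had log2 fold changes of -0.16 ± 0.13 and 0.035 ± 0.15. The groups overlapped in PIK3C3, AMBRA1, ATG14 and UVRAG. BECN1 and PSME3 lie on opposite strands with overlapping exons, and the libraries do not mark strand. PSME3 had 30278 counts against 4659 of BECN1, and a log2 fold change of -0.28 (adjusted p = 0.142). Of the 32 genes, 11 had such a neighbour with at least 100 counts: BECN1, ATG3, ATG4D, ATG7, ATG10, ATG12, ATG13, ATG14, VMP1, WDR45B and WIPI1. AP3S1 had 4270 counts against 3904 of ATG12, FBXO34 3332 against 2381 of ATG14, and FOXK2 12452 against 9701 of WDR45B. The part of shared reads was not tested.

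Of the 4 PI3P effectors, 3 rose (75%) and 0 fell, against 9.89% and 7.82% of all genes tested. WIPI1 (ENSG00000070540, chromosome 17, 68420948 to 68457513) was at 12.8, 13.5 and 15.02 CPM with DMSO and 28.6, 32.7 and 21.6 CPM with EZA. Each EZA library was above each DMSO library, with EZA replicate 3 the lowest of the treated group. The log2 fold change was 1.01 ± 0.18 (SE; edgeR adjusted p = 0.0103), 1.16 without EZA replicate 3 and 0.98 after removal of the GC and length trend (adjusted p = 0.0100). Its call was lost without DMSO replicate 1 or DMSO replicate 3 (adjusted p = 0.0532 to 0.0764). Exons of WIPI1 and ARSG overlap on opposite strands, and ARSG, with 411 counts against 1999, had a log2 fold change of 0.57 (adjusted p = 0.0726). WIPI2 (ENSG00000157954, chromosome 7, 5190196 to 5233840), which recruits ATG16L1 to the membrane, was at 153, 153 and 152 CPM with DMSO and 198, 220.4 and 188 CPM with EZA. The groups did not overlap, at a log2 fold change of 0.40 ± 0.12 (adjusted p = 0.0446). WIPI2 was no longer called without DMSO replicate 1, DMSO replicate 2, DMSO replicate 3, EZA replicate 1 or EZA replicate 2 (adjusted p = 0.0826 to 0.194). Without EZA replicate 3 WIPI2 was at 0.46 (adjusted p = 5.86e-04), and with library size scaling and with no filter it missed the threshold (adjusted p = 0.0618 and 0.0784). After removal of the trend it was at 0.33 (adjusted p = 0.0774). WDR45 (ENSG00000196998, chromosome X, 49074433 to 49101170), the X-linked WIPI4 that binds ATG2, was at 40.1, 43.2 and 43.1 CPM with DMSO and 87.0, 95.8 and 53.8 CPM with EZA. EZA replicates 1 and 2 lay more than 1.5-fold above EZA replicate 3, which still exceeded all DMSO libraries. The log2 fold change was 0.91 ± 0.20 (adjusted p = 0.0218), 1.12 without EZA replicate 3 (adjusted p = 1.92e-10) and 0.66 with the trend removed (adjusted p = 0.0627). Its call was lost without DMSO replicate 1, DMSO replicate 2, DMSO replicate 3, EZA replicate 1 or EZA replicate 2 (adjusted p = 0.0539 to 0.116). WDR45B, also called WIPI3, was at 102, 101.2 and 100.5 CPM with DMSO and 97.9, 109 and 98.5 CPM with EZA, so that the groups overlapped, with a log2 fold change of 0.010 ± 0.11.

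Among the lipid transfer protein and scramblase genes, 1 of 5 rose (20%) and 0 fell, against 9.89% and 7.82% of all genes tested. ATG2A (ENSG00000110046, chromosome 11, 64894546 to 64917209), which bridges the endoplasmic reticulum and the growing membrane, was at 108, 158 and 124 CPM with DMSO and 261, 190.2 and 356 CPM with EZA. The lowest EZA library, replicate 2, was 32.6 CPM above the highest DMSO library, replicate 2, and both groups were widely spread. The log2 fold change was 1.05 ± 0.23 (SE; edgeR adjusted p = 0.0205), 0.80 without EZA replicate 3 (adjusted p = 0.00362) and 0.65 after removal of the GC and length trend (adjusted p = 0.0278). ATG2A was no longer called without DMSO replicate 1 or DMSO replicate 3 (adjusted p = 0.0970 to 0.115). Its paralog ATG2B ran from 42.4 to 45.9 CPM in DMSO and 39.3 to 52.6 CPM in EZA, a log2 fold change of 0.10 ± 0.15. TMEM41B, a scramblase of the endoplasmic reticulum, was at 82.0, 65.6 and 76.4 CPM with DMSO and 94.7, 98.2 and 92.0 CPM with EZA, with no overlap of the groups. Its log2 fold change of 0.35 ± 0.13 missed the threshold (adjusted p = 0.0900) and passed without EZA replicate 3 (adjusted p = 0.00790) and with the trend removed, where it was 0.67 (adjusted p = 0.00569). Without each other library in turn TMEM41B was not called (adjusted p up to 0.254). VMP1, which works beside TMEM41B, was at 196, 158 and 186 CPM with DMSO and 167, 185 and 112 CPM with EZA. EZA replicate 3 was the lowest of the 6 libraries, and replicates 1 and 2 lay within the DMSO range. ATG9A, the scramblase of Golgi-derived vesicles, was at 56.9, 64.4 and 54.5 CPM with DMSO and 69.3, 60.2 and 36.9 CPM with EZA, again lowest in EZA replicate 3, and its log2 fold change of -0.078 ± 0.22 was 0.15 without that library (adjusted p = 0.341). Exons of VMP1 and PTRH2 overlap on opposite strands.

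Of the 6 genes of the conjugation machinery, 0 were called in the edgeR test, and at an unadjusted p below 0.05 ATG7 was higher and ATG16L1 lower. ATG7 also passed in DESeq2 (adjusted p = 0.0219) and limma-voom (adjusted p = 0.0477), and missed the threshold with library size scaling and with no filter (adjusted p = 0.0749 and 0.119). ATG7, the E1-like enzyme that activates ATG12 and the ATG8 proteins, was at 34.8, 36.5 and 33.2 CPM with DMSO and 45.3, 46.6 and 46.0 CPM with EZA. The EZA libraries lay close together above the DMSO libraries, and the log2 fold change was 0.40 ± 0.12 (SE; edgeR adjusted p = 0.0501), 0.43 after removal of the GC and length trend (adjusted p = 0.0315) and 0.40 without EZA replicate 3 (adjusted p = 0.00649). Without each other library in turn ATG7 was not called (edgeR adjusted p up to 0.233). ATG16L1, which brings the ligase to the membrane, was at 39.9, 37.9 and 34.2 CPM with DMSO and 24.8, 27.3 and 31.6 CPM with EZA, all EZA libraries below all DMSO libraries. Its log2 fold change was -0.42 ± 0.14 (adjusted p = 0.0739) and -0.51 without EZA replicate 3 (adjusted p = 0.00134). Without each other library in turn ATG16L1 was not called (adjusted p up to 0.243). After removal of the GC and length trend it was at -0.42 (adjusted p = 0.0831). ATG3, the E2-like enzyme of the ATG8 proteins and the most counted of the 6, was at 50.7, 50.8 and 53.7 CPM with DMSO and 43.2, 52.1 and 41.6 CPM with EZA, and the groups overlapped. ATG12, the ubiquitin-like tag, was at 50.5, 41.1 and 43.9 CPM with DMSO and 40.4, 46.9 and 19.8 CPM with EZA. EZA replicate 3 was the lowest of all libraries, 2.21-fold below the mean of EZA replicates 1 and 2, and the log2 fold change of -0.34 ± 0.28 was -0.046 without it (adjusted p = 0.798). ATG5, to which ATG12 is joined, ran from 32.4 to 43.2 CPM in DMSO and 30.4 to 43.0 CPM in EZA. ATG10, the E2-like enzyme of that joining, was the gene with the fewest counts of the 32, 4.09 to 4.72 CPM in DMSO and 2.90 to 5.25 CPM in EZA, and shares exon bases on the opposite strand with RPS23, a ribosomal protein gene with 18504 counts against its 410.

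The 4 ATG4 proteases trim ATG8 proteins and later free them from lipid. Of their genes, 1 rose (25%) and 0 fell, against 9.89% and 7.82% of all genes tested. The gene that rose was ATG4D (ENSG00000130734, chromosome 19, 10543895 to 10553418). It was at 26.8, 34.4 and 33.5 CPM with DMSO and 44.3, 45.3 and 46.8 CPM with EZA. The 3 EZA libraries lay close to each other and above all DMSO libraries, and the log2 fold change was 0.52 ± 0.14 (SE; edgeR adjusted p = 0.0355). Without EZA replicate 3 it was 0.51 (adjusted p = 0.00129), and with library size scaling the adjusted p was 0.0505. After removal of the GC and length trend it was 0.025 (adjusted p = 0.886). Its call was lost without DMSO replicate 1, DMSO replicate 2, DMSO replicate 3, EZA replicate 1 or EZA replicate 2 (adjusted p = 0.0675 to 0.152). ATG4D and KRI1 have overlapping exons on opposite strands, and KRI1, with 6250 counts against 3671, had a log2 fold change of 0.24 (adjusted p = 0.380). ATG4B, the most active protease of the family, was at 50.6, 62.4 and 57.8 CPM with DMSO and 67.0, 68.7 and 69.9 CPM with EZA. The groups did not overlap, the log2 fold change was 0.27 ± 0.13 (adjusted p = 0.168), and it was 0.011 with the trend removed. ATG4A and ATG4C ran from 11.4 to 12.3 CPM in DMSO and 8.13 to 13.1 CPM in EZA and from 12.1 to 14.5 CPM in DMSO and 8.62 to 12.1 CPM in EZA, with log2 fold changes of -0.13 ± 0.19 and -0.37 ± 0.18 (adjusted p = 0.680 and 0.174). As a share of the summed FPKM of the family, ATG4D went from 44.9% ± 2.78 to 53.5% ± 2.27 (SD, n = 3 each), and ATG4B from 27.8% ± 1.17 to 27.7% ± 0.939. The ATG4D share was above all DMSO libraries in each EZA library, while the ATG4B shares overlapped.

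Neither fusion gene was called, in edgeR, DESeq2 or limma-voom, or at an unadjusted p below 0.05 in edgeR. EPG5, a tether between autophagosomes and lysosomes and the more counted of the 2, was at 81.8, 86.8 and 83.6 CPM with DMSO and 93.3, 65.6 and 93.9 CPM with EZA. EZA replicate 2 was the lowest and EZA replicates 1 and 3 the highest of the libraries, and the log2 fold change was 0.0026 ± 0.16 (SE; edgeR adjusted p = 0.993). STX17, the SNARE of the closed autophagosome, was at 24.0, 24.6 and 24.1 CPM with DMSO and 26.1, 24.2 and 33.8 CPM with EZA, with a log2 fold change of 0.21 ± 0.16 (adjusted p = 0.375). After removal of the GC and length trend STX17 was at 0.52 (adjusted p = 0.0424).

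Levels per length were compared with the authors' FPKM in the DMSO libraries. WDR45B and VMP1 were the most abundant of the 32, at 28.02 ± 0.293 and 25.5 ± 2.70 FPKM (SD, n = 3), and WIPI2, TMEM41B and ATG2A followed at 16.7 ± 0.145, 16.6 ± 1.80 and 16.2 ± 3.24 FPKM. The lowest were UVRAG, ATG2B, ULK2 and ATG10, at 3.02 ± 0.248, 2.97 ± 0.137, 1.77 ± 0.0536 and 0.781 ± 0.0656 FPKM. From WDR45B to ATG10 the level differed 35.9-fold, and the median of the 32 was 6.47 FPKM, beside 5.13 FPKM for all genes tested. Neighbours in the order had overlapping DMSO ranges in 24 of 31 cases. The 7 gaps without overlap were those from VMP1 to WIPI2, from PIK3R4 to AMBRA1, from ATG3 to RB1CC1, from ATG12 to ATG4C, from ATG7 to UVRAG, from ATG2B to ULK2 and from ULK2 to ATG10. In EZA the order of the mean FPKM began with ATG2A at 33.7 ± 10.1 and ATG101 at 28.6 ± 14.8 FPKM, which held places 5 and 9 in DMSO. PIK3R4 went from place 10 to place 18, and WIPI1 from 26 to 15.

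**Figure D2:**
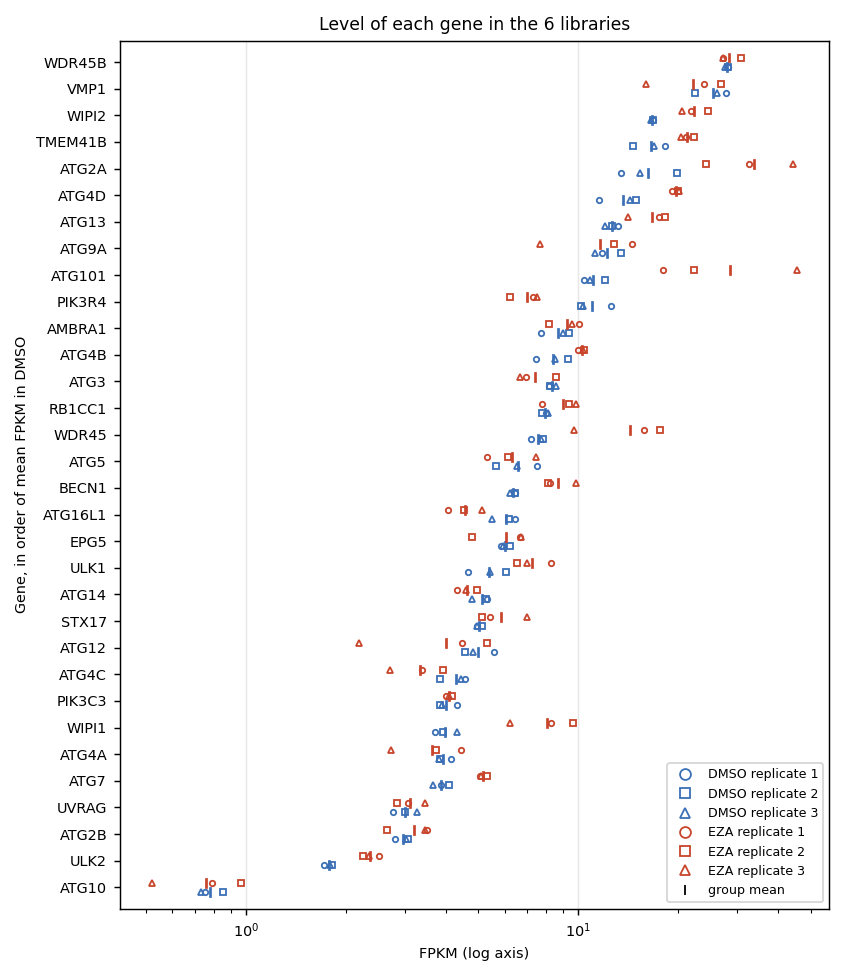
Points give the FPKM of each of the 32 genes in each library on a logarithmic axis, with a vertical mark for the mean of each group of 3, and genes stand in order of their DMSO mean. Red points lie apart from blue ones to the right in ATG101, ATG2A, WDR45 and WIPI1, among others, and to the left in PIK3R4 and ATG16L1. In ATG101 and in ATG12, 1 EZA point, replicate 3, lies apart from the other 2.

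Ratios of related genes within a library do not depend on the scaling between libraries. The ratio of WDR45 to WDR45B in FPKM was 0.256, 0.277 and 0.279 with DMSO and 0.578, 0.569 and 0.355 with EZA. It was higher in all EZA libraries, by a mean log2 difference of 0.85. The ratio of ATG2A to ATG2B was 4.78, 6.45 and 5.06 with DMSO and 9.32, 9.10 and 12.8 with EZA, with a log2 difference of 0.93, again without overlap. WIPI1 to WIPI2 was 0.221, 0.232 and 0.260 with DMSO and 0.381, 0.391 and 0.303 with EZA, a log2 difference of 0.59 without overlap. For these 3 ratios the two-sided exact permutation test gave p = 0.1, the smallest that 3 libraries against 3 allow, and 0.167 after adjustment over the 5 ratios. ULK1 to ULK2 ran from 2.71 to 3.33 in DMSO and from 2.90 to 3.30 in EZA (exact permutation p = 1). ATG4A to ATG4B ran from 0.413 to 0.553 in DMSO and from 0.264 to 0.445 in EZA (exact permutation p = 0.2, adjusted p = 0.25). The ratios were not corrected for GC content, which was 63.9% in ATG2A against 42.9% in ATG2B, and 64.2% in ULK1 against 47.6% in ULK2. After removal of the GC and length trend, log2 fold changes were 0.65 for ATG2A and 0.36 for ATG2B, and 0.023 for ULK1 and 0.54 for ULK2. They were 0.66 for WDR45 and -0.037 for WDR45B, and 0.98 for WIPI1 and 0.33 for WIPI2. The part of GC content in the ratios was not tested.

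**Figure D3:**
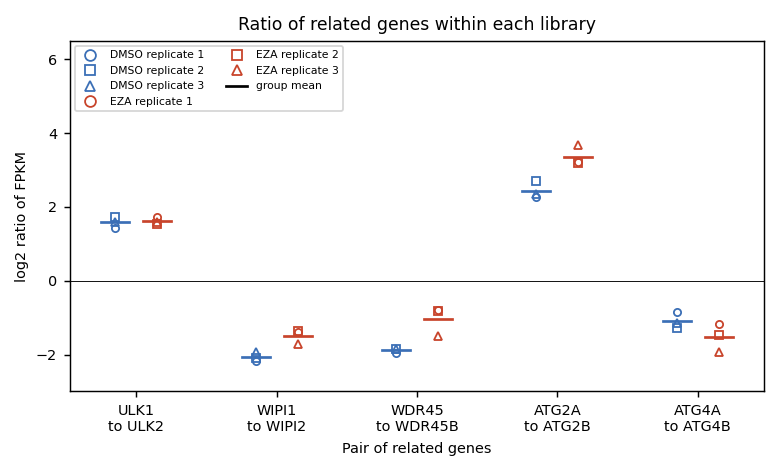
Points give the log2 ratio of the FPKM of 2 related genes within each library, with bars for the mean of each group of 3. The EZA points lie above the DMSO points for WIPI1 to WIPI2, WDR45 to WDR45B and ATG2A to ATG2B, and overlap them for ULK1 to ULK2 and ATG4A to ATG4B.

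Changes across the machinery moved with GC content, as they did across the series. Spearman's rho between log2 fold change and transcript GC content was 0.56 over the 32 genes, and over 11430 protein-coding genes 0.54; the points share the same 6 libraries, and genes are not replicates. The 3 genes over 60% GC, ULK1, ATG2A and ATG4D, had a median of 0.52, beside 0.44 for all 1808 protein-coding genes in that range, of which 31.2% were called higher. The 7 genes of at most 40% GC, RB1CC1, PIK3C3, TMEM41B, ATG5, ATG12, ATG4C and STX17, had a median of 0.016, beside -0.31 for 1980 genes, of which 20.1% were called lower. WIPI1, at 49.1% GC, stood at 1.01 where genes of 45% to 50% had a median of -0.065. With the trend removed 8 of the 32 genes rose, against 6.57% of all genes tested, and 1 fell, against 4.82%. WIPI1, ATG2A and PIK3R4 stayed called, while ATG101, WIPI2, WDR45 and ATG4D lost the call with smaller fold changes, and BECN1 lost it at 0.51, above its reported 0.44. ULK2, RB1CC1, PIK3C3, TMEM41B, ATG7 and STX17 gained one, and their log2 fold changes were then 0.54, 0.54, 0.40, 0.67, 0.43 and 0.52. The part of GC content in the changes was not tested.

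**Figure D4:**
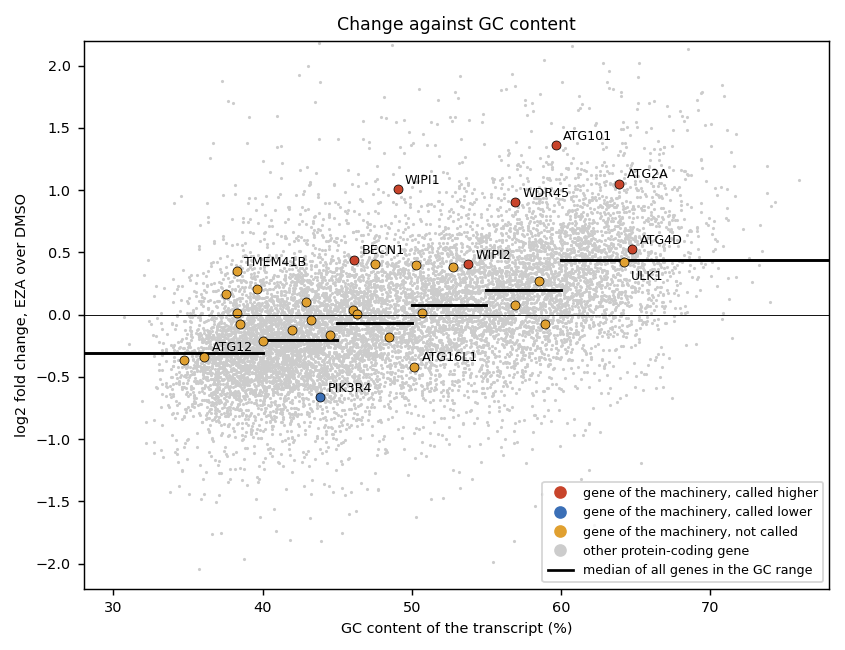
Points give the log2 fold change, EZA over DMSO, against the GC content of the transcript, with the 32 genes in colour over protein-coding genes in grey and bars for the median of all genes in each GC range; genes beyond 2.2 on the vertical axis or outside the horizontal axis are not drawn. The bars climb from -0.31 to 0.44, ATG4D and ULK1 lie close to the bar of their range, and WIPI1 lies above its own at 1.01.

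The EZA libraries differed among themselves more than the DMSO libraries. The SD of log2 CPM was larger in EZA in 25 of the 32 genes, with medians of 0.179 and 0.107. The share of all genes with a larger SD in EZA was not determined. Over the whole table, chi-square per degree of freedom was 13.0 between EZA replicates 1 and 2, and 4.75 to 12.0 between DMSO replicates. For the pairs with EZA replicate 3 it was 103 and 115. EZA replicate 3 was at least 1.5-fold below the mean of EZA replicates 1 and 2 in 5 genes, ATG12, ATG9A, WDR45, ATG10 and VMP1, and at least 1.5-fold above it in 2, ATG2A and ATG101. In all genes tested these shares were 16.1% and 13.6%. The median log2 difference of the 32 genes from the DMSO mean was 0.18, 0.083 and 0.19 in EZA replicates 1 to 3. For the PI3P effectors it was 0.71, 0.86 and 0.32, lowest in replicate 3, and for the ULK complex 0.49, 0.31 and 0.38.

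**Figure D5:**
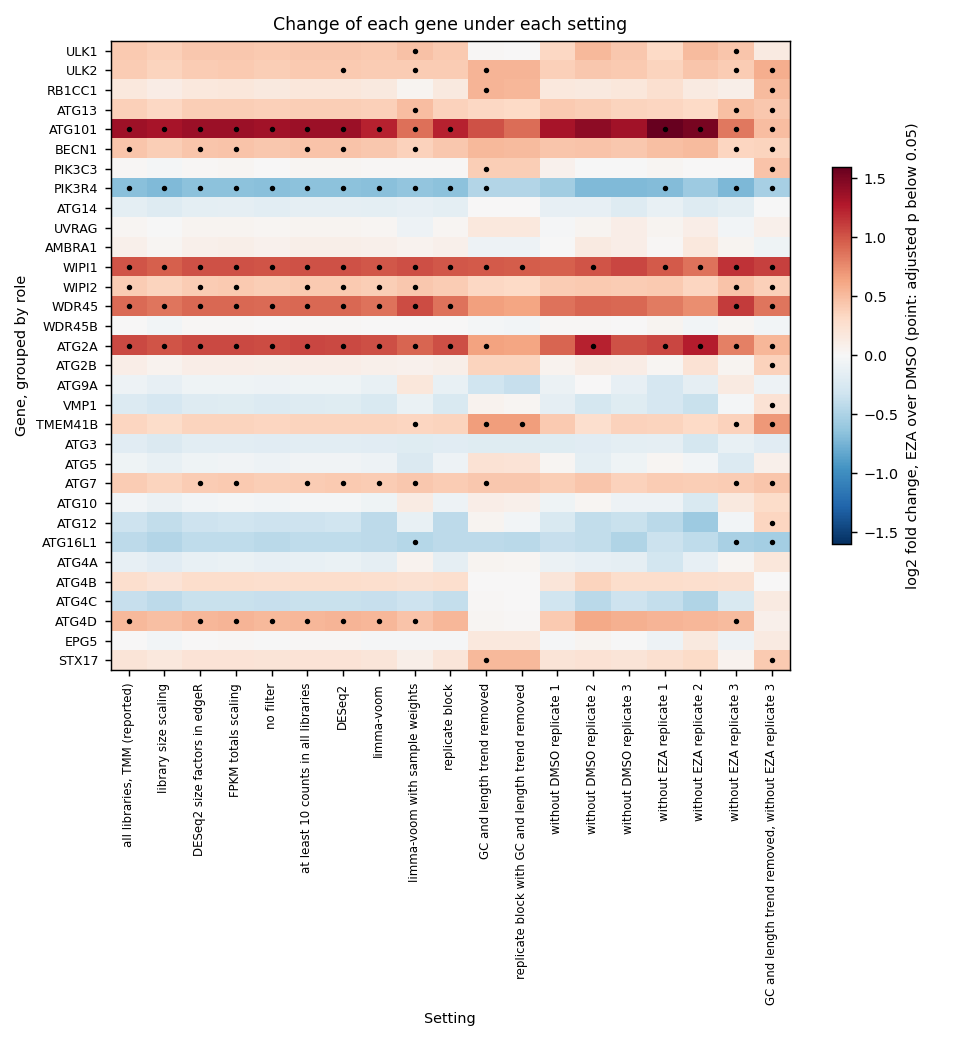
Colours give the log2 fold change, EZA over DMSO, of each of the 32 genes (rows, grouped by role) under the reported analysis and 18 alternative settings (columns), and a black point marks an adjusted p below 0.05. WIPI1 carries a point in 17 of the 19 columns and ATG2A in 16, and the columns without DMSO replicate 1 and without DMSO replicate 3 carry none.

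Other autophagy genes were read from 60 genes listed by role, of which 57 could be tested, 13 rose and 3 fell, with a median log2 fold change of 0.15. The higher calls were 22.8% and the lower calls 5.26% of the 57, against 9.89% and 7.82% of all genes tested. This list, too, was chosen with earlier results of these data known, and its shares are a description only. Of 22 further initiation factors 5 rose (22.7%) and 0 fell. ZFYVE1, the PI3P-binding protein DFCP1 of the sites where autophagosomes form, rose from 31.1 ± 1.57 to 61.6 ± 7.19 CPM (SD, n = 3 each). Its log2 fold change was 0.99 ± 0.14 (SE, edgeR; adjusted p = 0.00445). ULK3, a relative of ULK1, rose from 44.3 ± 1.38 to 82.9 ± 4.80 CPM, C9orf72, whose product forms a complex with SMCR8 and WDR41, from 21.9 ± 0.904 to 34.0 ± 1.39 CPM, and MTMR14, a phosphatase that removes PI3P, from 53.0 ± 4.33 to 72.9 ± 4.51 CPM. Calls of ZFYVE1 and ULK3 held without each library in turn, while C9orf72 lost it without DMSO replicate 1, DMSO replicate 2 or DMSO replicate 3 (adjusted p up to 0.102), and MTMR14 without DMSO replicate 1, DMSO replicate 2, DMSO replicate 3, EZA replicate 1 or EZA replicate 2 (adjusted p up to 0.168). Of 14 fusion SNAREs, HOPS subunits and tethers 4 rose (28.6%) and 1 fell (7.14%). PLEKHM1, an adaptor that links RAB7 and HOPS to ATG8 proteins, rose from 64.2 ± 4.23 to 128 ± 9.45 CPM, and its call held without each library. The HOPS subunits VPS16 and VPS39 had log2 fold changes of 0.75 ± 0.13 and 0.53 ± 0.14, and BIRC6, a large ubiquitin ligase, -0.58 ± 0.13. VPS16 lost its call without DMSO replicate 1 or DMSO replicate 3 (adjusted p up to 0.0729), VPS39 without DMSO replicate 1, DMSO replicate 2, DMSO replicate 3 or EZA replicate 1 (adjusted p up to 0.152) and BIRC6 without DMSO replicate 1, DMSO replicate 2, DMSO replicate 3 or EZA replicate 2 (adjusted p up to 0.110). Of 15 upstream kinase and mTORC1 genes 1 rose and 1 fell, 6.67% each, against 9.89% and 7.82% of all genes tested. PRKAG2 and PRKAA1, subunits of the energy sensor AMPK, had log2 fold changes of 0.51 ± 0.13 and -0.65 ± 0.15 (adjusted p = 0.0289 and 0.0260). PRKAG2 lost its call without DMSO replicate 1, DMSO replicate 2, DMSO replicate 3, EZA replicate 1 or EZA replicate 2 (adjusted p up to 0.152), and PRKAA1 without DMSO replicate 1, DMSO replicate 2, DMSO replicate 3 or EZA replicate 1 (adjusted p up to 0.132). STK11, the kinase that activates AMPK, and DEPTOR, an inhibitor of mTOR, had log2 fold changes of 0.71 ± 0.24 and 1.16 ± 0.41 (adjusted p = 0.0685 and 0.0787). STK11 was at 52.9, 70.7 and 67.1 CPM with DMSO and 80.4, 85.1 and 146 CPM with EZA, highest in EZA replicate 3, and its log2 fold change was 0.38 without that library (adjusted p = 0.00910) and 0.13 after removal of the GC and length trend (adjusted p = 0.563). DEPTOR, at 0.739 ± 0.311 CPM in DMSO, had log2 fold changes of 1.37 and 1.25 under these changes (adjusted p = 0.00600 and 0.0756). Of 6 tested ATG8 genes, the substrates of the conjugation enzymes, 3 rose (50%) and 1 fell (16.7%), against 9.89% and 7.82% of all genes tested. MAP1LC3B2, MAP1LC3B and GABARAPL1 had log2 fold changes of 0.92 ± 0.17, 0.60 ± 0.15 and 0.79 ± 0.21, and MAP1LC3C -1.48 ± 0.12, a call that held without each library. Their levels went from 4.36 ± 0.214 to 8.23 ± 0.349 CPM, 161 ± 16.2 to 243 ± 39.9 CPM, 12.2 ± 0.154 to 21.1 ± 5.73 CPM and 339 ± 6.91 to 121 ± 11.1 CPM. MAP1LC3B2 and MAP1LC3B are near-identical copies whose reads can be shared. MAP1LC3B2 lost its call without DMSO replicate 1 or DMSO replicate 3 (adjusted p up to 0.0741), MAP1LC3B without DMSO replicate 1, DMSO replicate 2, DMSO replicate 3, EZA replicate 1 or EZA replicate 2 (adjusted p up to 0.141) and GABARAPL1 without DMSO replicate 1, DMSO replicate 2, DMSO replicate 3, EZA replicate 1 or EZA replicate 2 (adjusted p up to 0.142).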

How the data were processed

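Oligo(dT)-enriched RNA of 3 DMSO and 3 EZA libraries was made into libraries that do not mark strand, per the labels' protocols. The submitters' processing notes name HISAT2, featureCounts, DESeq2 and GRCh38; options and annotation are not stated there. Deposited by the authors were gene counts, whole numbers, used for every test, and FPKM, used for levels per length and for ratios. Symbols, GC content and length of the canonical transcript came from GENCODE 44; a symbol on several identifiers went to the one with most counts.

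Members and lists were chosen with earlier results of these data known. Counts were filtered with filterByExpr (13503 genes), TMM-scaled, and compared in edgeR (quasi-likelihood, robust, two-sided, no covariates); SE came from the F statistic, and CPM use the TMM-scaled totals of tested genes. All 32 members have values; those called, and the most counted of each role, have them per library, and up to 4 genes of each other list, by adjusted p, are named. GC and length trends were removed by lowess (span 0.3) per library. The labels call replicates biological without saying that cultures were separate, so p-values cover the spread of these samples, which may be technical. Replicates differed by more than counting noise (chi-square per degree of freedom 4.75 to 115). In simulated counts for the EZA comparison with 13263 genes, the test recovered 88 of 100 genes changed 2-fold, 100 of 100 changed 4-fold, with 10 false calls. The simulation gave every gene the same dispersion, had no GC trend and no library that stood apart, and placed changes only in better-counted genes. Its figures therefore cannot be carried over to the measured libraries. Software was DESeq2 1.42.0, limma 3.58.1 and edgeR 4.0.16 in R 4.3.3, and Python 3.11.15.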

Additional observations from a re-analysis of the deposited data

How the results depend on the processing

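Over the alternatives, 435 of 576 values of the 32 genes kept direction and side of the threshold. With the sign kept, 53 lost a call and 34 gained one. A further 54 changed sign, all in genes not called in the reported analysis. Of these, the values of ATG12 and VMP1 with the trend removed and EZA replicate 3 left out were also called, on the higher side. With each library left out in turn, 0 to 12 genes of the machinery were called higher, 0 to 2 lower and 1 to 3 met the study's threshold; 3 to 23 other autophagy genes were called higher, 1 to 5 lower, and 220 to 5289 genes of the whole table were called. With scaling by library size alone, 4 genes of the machinery were higher, and 2329 genes of the table were called. Counts given here for the table take both directions together, so they set no share beside the directional counts of the machinery. In limma-voom with sample weights, 12 genes of the machinery were higher, 2 lower, 23 other autophagy genes were higher, 5 lower among other autophagy genes and 5761 genes of the table were called. With the replicate number as a block, 4 genes of the machinery were higher. With the block and the trend removed together, 2 genes of the machinery were higher, 0 lower, 0 met the study's threshold, 6 other autophagy genes were higher, 1 lower among other autophagy genes and 602 genes of the table were called. With the trend removed and EZA replicate 3 left out, 16 genes of the machinery were higher, 2 lower, 1 met the study's threshold, 28 other autophagy genes were higher and 5329 genes of the table were called. With the GC and length trend removed, 1 met the study's threshold and 1538 genes of the table were called. Same-numbered libraries had deviations correlated at 0.033, -0.17, 0.027 for numbers 1 to 3, so the block pairs them by number only; with it 1970 genes of the table were called. With library size scaling, sign changes put PIK3C3 at -0.031, UVRAG at -0.010, WDR45B at -0.038, EPG5 at -0.041 on the log2 scale. With the GC and length trend removed, sign changes put ATG14 at 0.0063, AMBRA1 at -0.076, WDR45B at -0.037, VMP1 at 0.056, ATG5 at 0.23, ATG10 at 0.11, ATG12 at 0.046, ATG4A at 0.049, ATG4C at 0.022 on the log2 scale. With the block and the trend removed together, sign changes put ATG14 at 0.0045, AMBRA1 at -0.077, WDR45B at -0.038, VMP1 at 0.029, ATG5 at 0.22, ATG10 at 0.084, ATG4A at 0.029, ATG4C at 0.010 on the log2 scale. In limma-voom with sample weights, sign changes put UVRAG at -0.086, ATG9A at 0.19, ATG10 at 0.13, ATG4A at 0.053, EPG5 at -0.018 on the log2 scale. With the trend removed and EZA replicate 3 left out, sign changes put AMBRA1 at -0.074, WDR45B at -0.040, VMP1 at 0.24, ATG5 at 0.078, ATG10 at 0.29, ATG12 at 0.34, ATG4A at 0.18, ATG4C at 0.15 on the log2 scale. VMP1 and ATG12 were called higher there (edgeR adjusted p = 0.00425 and 0.00153). With no filter on low counts, sign changes put EPG5 at -0.0046 on the log2 scale. In limma-voom, sign changes put EPG5 at -0.018 on the log2 scale. With the replicate number as a block, sign changes put EPG5 at -0.015 on the log2 scale. Without 1 library each, PIK3C3 ran from -0.0065 to 0.069, UVRAG ran from -0.047 to 0.11, AMBRA1 ran from -0.0012 to 0.17, WDR45B ran from -0.041 to 0.040, ATG9A ran from -0.27 to 0.15, ATG5 ran from -0.22 to 0.036, ATG10 ran from -0.25 to 0.16, ATG4A ran from -0.30 to 0.036, EPG5 ran from -0.081 to 0.16. The log2 difference of the ULK1 to ULK2 ratio, 0.021, ran from -0.056 to 0.093 over these; the other 4 ratios kept their direction there and with counts plus 0.5 in place of FPKM. The causes were not tested. At 410 counts, ATG10 has the least depth to show a difference.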
